A study of Mus musculus with 6 samples.

Results

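Cd36 and 9 further genes through which the absorptive cells of the small intestine take up, bind and activate long-chain fatty acids were followed in mouse jejunum during feeding with milk fat. The genes were set by name, with earlier results of these data known (Cd36, Fabp1, Fabp2, Fabp5, Slc27a2, Slc27a4, Acsl3, Acsl5, Got2 and Dbi). Every probe set whose platform annotation names exactly 1 gene, and 1 of these, was taken. This gave 22 of the 45101 probe sets on the Affymetrix mouse expression array, and 10 of the 18193 genes that a probe set names alone. Of the 22, 19 exceeded 4 (log2) in 3 or more of the 6 mice and were tested among 18013 probe sets; each of the 10 genes kept at least 1.

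The study set 3 double knockout mice, which lacked both Ifrd1 (TIS7) and Ifrd2 (SKMc15), against 3 wild type mice. All 6 were males on a C57BL/6 background, given as 7 to 10 weeks old and caged singly. Both groups were on the same synthetic diet for 3 weeks before the tissue was taken, with 42% of energy from milk fat and 0.2% from cholesterol, so no mice on a standard diet enter the comparison. Each array holds the jejunal RNA of 1 mouse. Which exons were removed, whether the loss was limited to a tissue, and whether the groups were littermates is not stated. The study concerns lipid absorption, and the comparison here asks how the transcripts of fatty acid uptake stood when both genes were lost.

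On the arrays, Ifrd2 had log2 values of 2.64, 2.74 and 2.59 in double knockout mice 1, 2 and 3, against 8.20, 8.32 and 8.61 in wild type mice 1, 3 and 4. Ifrd1 had 6.27, 4.80 and 4.85 in double knockout mice, against 10.00, 9.84 and 9.91 in wild type mice. Array medians lay between 2.87 and 2.90. The 3′ minus 5′ difference of Gapdh and β-actin control probe sets, a sign of RNA integrity, lay between 0.41 and 0.61 on the double knockout arrays and between 0.35 and 0.49 on the wild type arrays (exact two-sided permutation test over 20 splits, p = 0.20; the smallest p this design allows is 0.10). None of the 10 genes lies on the chromosome of either Ifrd gene. In RNA of a whole tissue, fewer cells of a type and less RNA per cell cannot be told apart.

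Fatty acids released from dietary fat cross the brush border of enterocytes by diffusion and with the help of membrane proteins, of which Cd36 is the best known. Inside the cell, fatty acid binding proteins carry them through the cytosol, and acyl-CoA synthetases join them to coenzyme A, which traps them for esterification. Cd36 is also made by capillary endothelium, macrophages, adipocytes and platelets, and its transcription is known to respond to the nuclear receptor PPARγ.

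Cd36, a scavenger receptor that binds long-chain fatty acids, fell in double knockout jejunum on each of its 3 probe sets. On the probe set with the highest mean, 1450883_a_at, double knockout mice 1, 2 and 3 had log2 levels of 9.97, 10.39 and 10.43, against 11.43, 11.25 and 11.39 in wild type mice 1, 3 and 4. The groups stood apart by more than the spread within either, and double knockout mouse 1 was the lowest. The mean was 10.27 ± 0.25 in double knockout mice and 11.36 ± 0.10 in wild type mice (SD, n = 3 each), which differ by -1.09 ± 0.14 (log2 fold change, SE; limma adjusted p = 0.0210). On the linear scale, the double knockout level was 46.9% of the wild type level.

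The other Cd36 probe sets showed the same order of groups. Probe set 1423166_at had 9.69, 10.15 and 10.22 in double knockout mice, against 11.02, 10.98 and 11.02 in wild type mice (log2 fold change -0.99 ± 0.15 (SE), limma adjusted p = 0.0265). Its double knockout level was 50.3% of the wild type level. The dimmest, 1450884_at, had 6.65, 6.83 and 6.95 in double knockout mice, against 8.14, 8.24 and 8.37 in wild type mice (log2 fold change -1.44 ± 0.11 (SE), limma adjusted p = 0.00739), which is 36.9% of the wild type level. On all 3 probe sets double knockout mouse 1 had the lowest value and mouse 3 the highest of its group. The 95% intervals of the fold changes overlapped, with -1.43 to -0.75, -1.35 to -0.64 and -1.71 to -1.17 for the probe sets in the order given. The platform annotation ties them all to 1 source sequence, so they are repeated readings of a transcript and not independent evidence.

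Of the 18013 tested probe sets, 1.93% were lower in double knockout mice past the threshold (limma, adjusted p of 0.05 or less), and 0.877% had a fold change as low as that of 1450883_a_at. The Cd36 calls depended on the arrays used. With 1 mouse left out at a time, 1450884_at passed in 6 of 6 fits (limma adjusted p 0.0165 to 0.0448), whereas 1450883_a_at passed in 2 of 6 (0.0380 to 0.0965), missing without double knockout mouse 3 (0.0541) and without wild type mouse 1 (0.0737), 3 (0.0522) or 4 (0.0965). Probe set 1423166_at likewise passed in 2 of 6, without double knockout mouse 1 or 2. In these fits the fold change of 1450883_a_at stayed between -1.18 and -0.95. Calls over the whole array fell from 347 lower and 458 higher to between 21 and 239 lower and between 11 and 196 higher. With the 3′ to 5′ difference as a covariate, the fold changes were -0.95, -0.89 and -1.43 and none of the 3 passed (limma adjusted p = 0.161, 0.184 and 0.0817). That fit left 12 lower and 5 higher calls over the whole array.

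**Figure D1:**
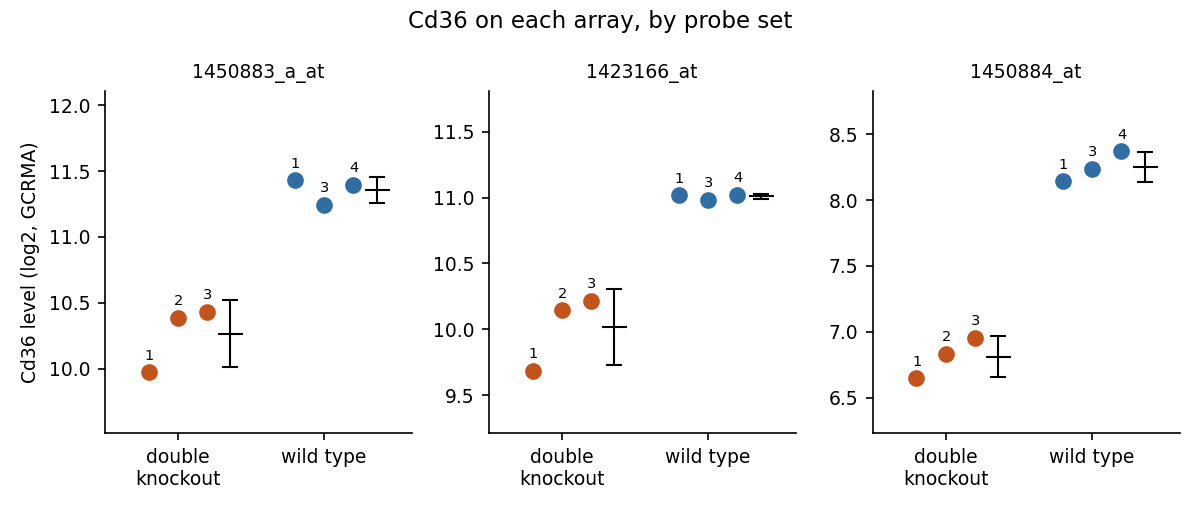
Log2 level of Cd36 on each array (y axis, GCRMA values), 1 panel per probe set, with double knockout mice on the left and wild type mice on the right of each panel. Points are single mice with their numbers, and the bar and whiskers to their right are the mean and SD of 3 mice. On the left panel the double knockout mice lie between 9.97 and 10.43 and the wild type mice between 11.25 and 11.43; the groups do not overlap in any panel, and the panels have y axes of the same length but different position.

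The region before the Cd36 start is shown beside those of Acsl3, whose fold change came next in size, and of Fabp1, the abundant binding protein that did not pass. RefSeq's promoter table (GRCm38.p6) matched 9 of the 10 genes, with 10 windows in all, and each sequence below is the 250 bases before the listed start, 5′ to 3′ on the gene's strand. Capitals mark the letters AGGTCA, the half-site of many nuclear receptors, the letters AGGNCANAGGNCA, a pair of such half-sites 1 base apart, and the letters GGGCGG, the core of an Sp-family site, each searched on both strands, so that TGACCT and CCGCCC are their reverse forms. A match of the pair can contain a match of the single half-site.
Cd36 (chr5:17835897-17836146, minus strand): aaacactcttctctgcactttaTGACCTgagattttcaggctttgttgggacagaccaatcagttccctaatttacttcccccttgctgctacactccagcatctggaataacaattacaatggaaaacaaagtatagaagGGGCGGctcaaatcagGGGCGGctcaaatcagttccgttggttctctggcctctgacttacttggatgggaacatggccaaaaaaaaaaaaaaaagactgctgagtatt
Acsl3 (chr1:78657575-78657824, plus strand): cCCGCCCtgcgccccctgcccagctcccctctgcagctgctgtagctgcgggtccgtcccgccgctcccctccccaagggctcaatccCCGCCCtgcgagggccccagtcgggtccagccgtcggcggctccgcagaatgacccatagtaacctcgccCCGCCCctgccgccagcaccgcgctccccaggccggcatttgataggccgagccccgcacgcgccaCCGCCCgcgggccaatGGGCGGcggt
Fabp1 (chr6:71199629-71199878, plus strand): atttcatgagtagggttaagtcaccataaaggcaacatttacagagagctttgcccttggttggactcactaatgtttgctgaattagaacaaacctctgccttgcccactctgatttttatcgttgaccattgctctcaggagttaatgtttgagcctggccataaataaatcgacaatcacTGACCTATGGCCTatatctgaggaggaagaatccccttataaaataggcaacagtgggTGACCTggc
The Cd36 window held 1 AGGTCA half-site and 2 GGGCGG cores and no match to the pair; Cd36 is known to have alternative first exons, and this is the only start the table lists. The window of Slc27a2, which did not pass and is not shown, had the same counts as that of Cd36, and the window of Got2 also held 1 half-site. The Acsl3 window held 5 GGGCGG cores and no half-site. The Fabp1 window held 2 half-sites, 1 of them inside a match to the pair. Over all 32851 windows of the same length in the table, 14.0% held AGGTCA, 0.338% held the pair and 32.7% held GGGCGG. These are matches of letters, and no binding was measured.

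The cytosolic binding proteins did not pass in either direction. Fabp1, the liver-type protein, is among the most abundant enterocyte transcripts and sat at the top of the measurable scale. Its probe set 1417556_at had 14.15, 14.13 and 14.18 in double knockout mice, against 14.20, 14.22 and 14.21 in wild type mice, and was the highest value of the whole array on 5 of the 6 arrays. The fold change was -0.06, with a 95% interval of -0.23 to 0.12 (limma adjusted p = 0.647). The second Fabp1 probe set, 1448764_a_at, had 13.87, 13.83 and 13.89 in double knockout mice, against 14.08, 13.91 and 14.00 in wild type mice (-0.13, interval -0.33 to 0.07, limma adjusted p = 0.355). Both lay lower on every double knockout array, by a mean of 0.06 for the brighter one. Such a separation was seen for 14.8% of all tested probe sets. Normalization between arrays holds the top values of all arrays close together, so a difference there has little room to show.

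Fabp2, the intestinal-type binding protein, was as close to that top. It had 14.15, 14.12 and 14.12 in double knockout mice, against 14.15, 14.15 and 14.17 in wild type mice, a fold change of -0.03 (interval -0.20 to 0.15, limma adjusted p = 0.834). The value was within 0.0705 of the array's highest on all 6 arrays. After quantile normalization its sign turned, to 0.0132.

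Fabp5, the epidermal-type binding protein, was the only gene of the 10 whose double knockout values all lay above the wild type values. The same held for 19.5% of all tested probe sets. Probe set 1416021_a_at had 9.40, 9.35 and 9.22 in double knockout mice, against 9.11, 9.04 and 8.81 in wild type mice. The fold change was 0.33 (interval 0.07 to 0.60) with a limma adjusted p of 0.119. Probe set 1416022_at had 6.67, 6.65 and 6.54 in double knockout mice, against 6.42, 6.23 and 6.04 in wild type mice (0.39, interval 0.11 to 0.66, limma adjusted p = 0.0975). Neither passed in the main test or in any of 16 alternatives, although wild type mouse 4 was the lowest and double knockout mouse 1 the highest on both.

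The fatty acid transport proteins of the Slc27a family are membrane proteins with acyl-CoA synthetase activity toward very long chains. Slc27a2, known as FATP2, had 11.57, 11.70 and 11.57 in double knockout mice, against 11.99, 11.93 and 11.93 in wild type mice. All double knockout values lay below all wild type values, as for 14.8% of all tested probe sets. The fold change was -0.34 (interval -0.54 to -0.14), which is 79.0% of the wild type level, and it did not pass (limma adjusted p = 0.0658). It passed in 2 of 16 alternatives, with the stricter filter (0.0404) and with an intensity trend in the variance prior (0.0183), with fold changes from -0.39 to -0.26 over all of them. Slc27a4, known as FATP4 and the main member of the family in the small intestine, had 11.73, 11.68 and 11.63 in double knockout mice, against 11.63, 11.74 and 11.78 in wild type mice. These values overlapped (fold change -0.04, interval -0.24 to 0.17, limma adjusted p = 0.813).

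The long-chain acyl-CoA synthetases stood at different places. Acsl3, a synthetase of the endoplasmic reticulum and of forming lipid droplets, had 8.64, 9.12 and 8.63 on probe set 1452771_s_at in double knockout mice, against 9.42, 9.62 and 9.40 in wild type mice. Probe set 1428386_at had 7.18, 7.78 and 7.08 in double knockout mice, against 8.34, 8.19 and 8.05 in wild type mice. On both, all double knockout values lay below all wild type values, as for 14.8% of all tested probe sets. Double knockout mouse 2 lay between its group and the wild type mice on both. The fold changes were -0.68 (interval -1.06 to -0.31) and -0.84 (interval -1.31 to -0.38), with limma adjusted p-values of 0.0587 and 0.0604, so neither passed.

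The Acsl3 call turned on 1 mouse and on the filter and variance settings. Without double knockout mouse 2 the fold changes were -0.85 and -1.06 and both probe sets passed (limma adjusted p = 0.0349 and 0.0275); without any other single mouse neither did. With all 6 mice, both also passed with the stricter filter, with an intensity trend and with array weights, and with the 3′ to 5′ covariate they stood at -0.51 and -0.52 (limma adjusted p = 0.306 and 0.293). A remaining Acsl3 probe set, 1428387_at, was too dim to test, with 3.33, 3.47 and 3.71 in double knockout mice, against 3.69, 4.77 and 4.03 in wild type mice. Acsl5, the synthetase that is abundant in the small intestine, had 13.65, 13.52 and 13.42 in double knockout mice, against 13.48, 13.56 and 13.50 in wild type mice. Its groups overlapped and the fold change was 0.02 (interval -0.20 to 0.24, limma adjusted p = 0.918).

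Got2, the mitochondrial aspartate aminotransferase that has also been described as a fatty acid binding protein of the plasma membrane, varied more between mice than between groups. Probe set 1417715_a_at had 9.44, 9.96 and 9.97 in double knockout mice, against 9.26, 9.85 and 9.36 in wild type mice (fold change 0.30, interval -0.19 to 0.80, limma adjusted p = 0.384). Probe set 1417716_at had 6.32, 7.29 and 7.00 in double knockout mice, against 6.76, 7.06 and 6.68 in wild type mice (0.03, interval -0.57 to 0.63, limma adjusted p = 0.945). Double knockout mouse 1 was the lowest of its group on both, and wild type mouse 3 the highest of its group. Its other 2 probe sets, 1430397_at and 1447768_at, were too dim to test and lay between 2.74 and 3.62 and between 0.93 and 1.10 in double knockout mice, against 2.88 to 3.18 and 0.90 to 0.95 in wild type mice.

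Dbi, the acyl-CoA binding protein that holds the products of the synthetases, was measured by 4 probe sets. On each, all double knockout values lay below all wild type values, as for 14.8% of all tested probe sets. Probe set 1422432_at had 13.01, 12.94 and 12.97 in double knockout mice, against 13.14, 13.25 and 13.23 in wild type mice (fold change -0.24, interval -0.43 to -0.05, limma adjusted p = 0.124). The other 3, whose _x_at suffix marks probes that can match further transcripts, had fold changes of -0.23, -0.13 and -0.09 and limma adjusted p-values of 0.171, 0.388 and 0.479. None of the 4 passed; 1422432_at passed in 1 of 16 alternatives, with an intensity trend (0.0298).

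**Figure D2:**
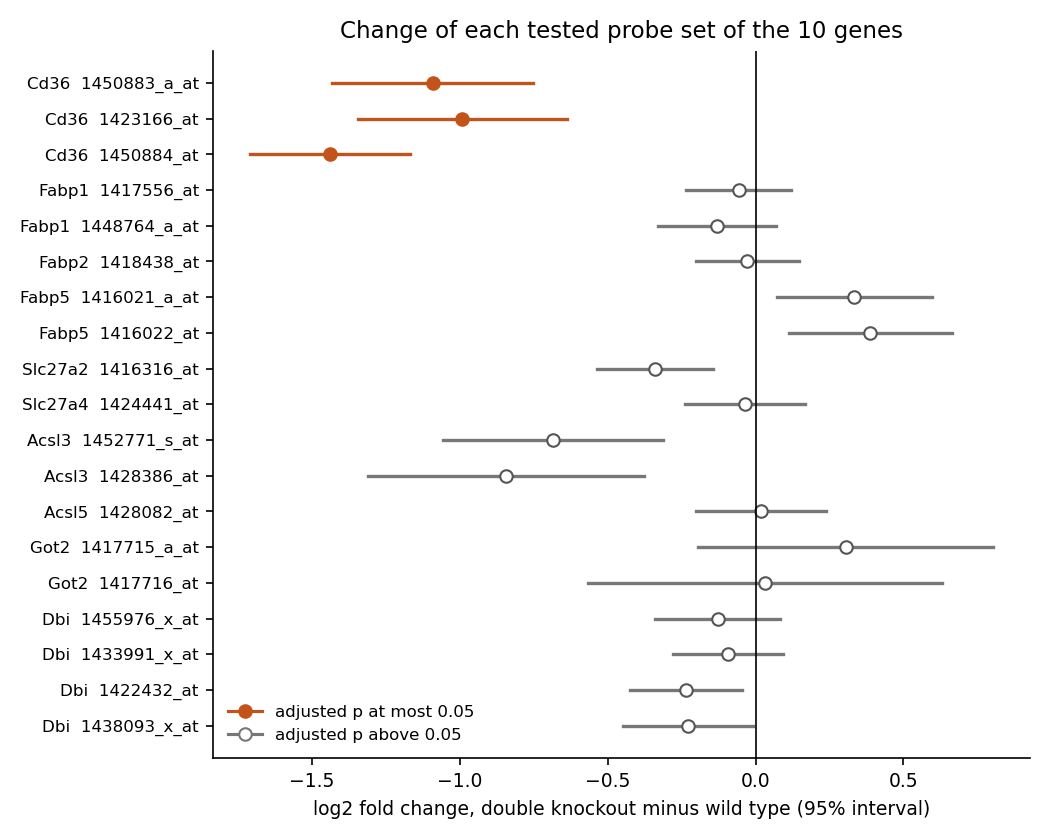
Log2 fold change of each of the 19 tested probe sets (x axis, double knockout minus wild type) with its 95% interval from limma; filled points passed an adjusted p of 0.05 over 18013 probe sets. Only the 3 Cd36 probe sets, between -1.44 and -0.99, are filled, and the 2 of Acsl3 at -0.84 and -0.68 come next.

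**Figure D3:**
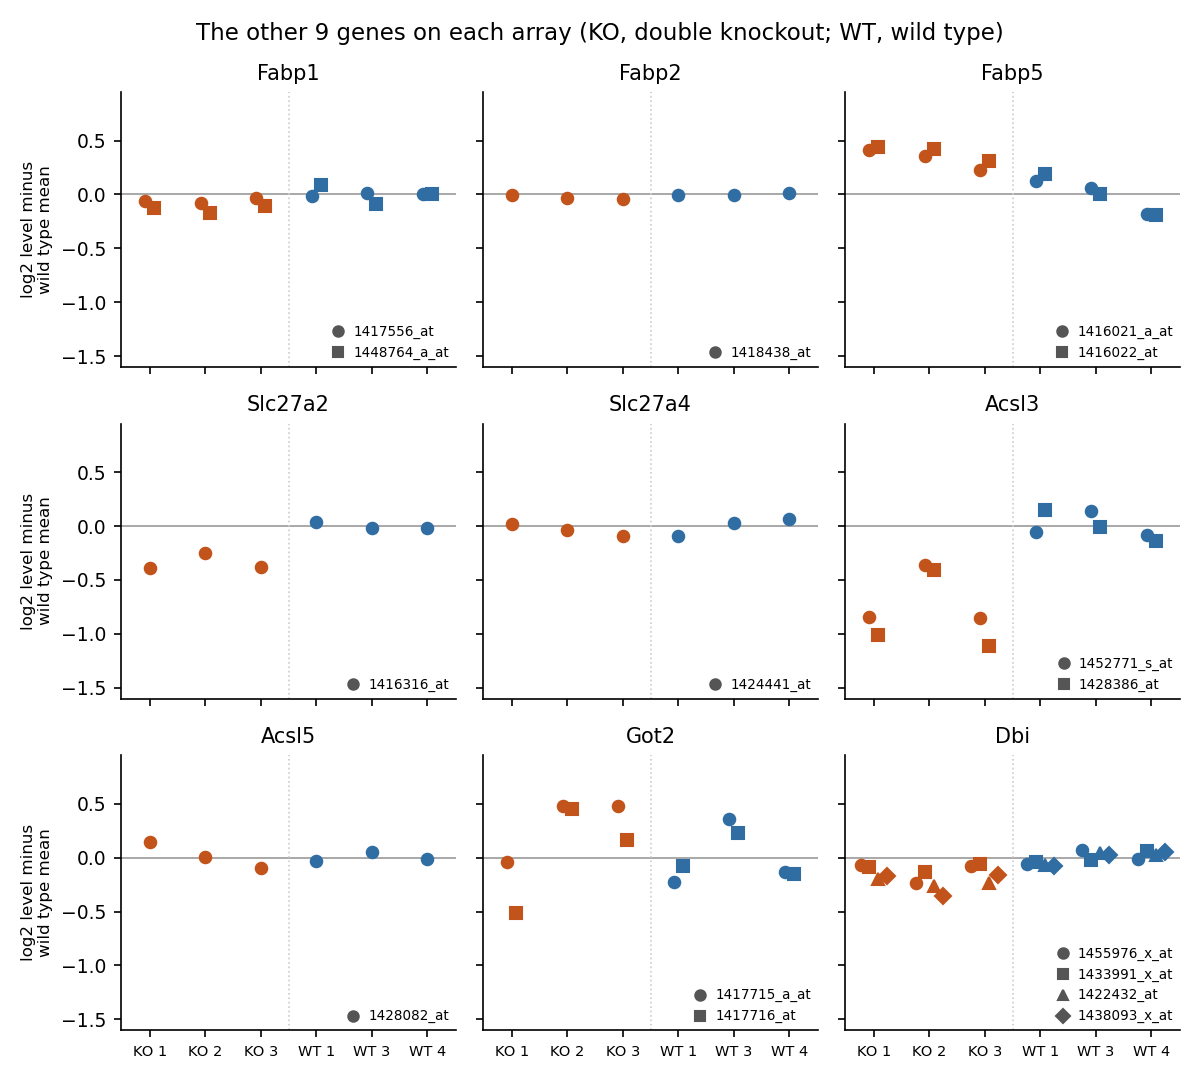
Log2 level on each array minus the wild type mean of the same probe set (y axis), 1 panel for each of the 9 genes other than Cd36, with double knockout mice left and wild type mice right of the dotted line and 1 marker shape per probe set. Double knockout mouse 2 lies nearer to the wild type mice than the other double knockout mice do for Acsl3, and Fabp5 lies above the wild type values in all 3 double knockout mice.

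Over the 10 genes, 3 of 19 tested probe sets (15.8%), all of Cd36, were lower and 0 higher past the threshold, where 1.93% of all tested probe sets were lower and 2.54% higher, 4.47% in all. The other 9 genes had none that passed; 10 of the 19 probe sets had an unadjusted p of at most 0.05, as did 27.1% of all tested ones. All double knockout values lay below all wild type values for 13 of the 19 (68.4%), which belong to Cd36, Fabp1, Fabp2, Slc27a2, Acsl3 and Dbi, and 14.8% of all tested probe sets did the same. They lay above for 2 (10.5%), both of Fabp5, against 19.5% of all tested probe sets, and overlapped for 4, where 34.3% of all tested probe sets had groups apart in either direction. The median log2 fold change was -0.13 over the 19 and 0.03 over all tested probe sets. Probe sets of 1 gene are repeated readings, so these counts describe 10 genes and not 19 independent ones. The genes were also chosen with earlier results of these data known, so the shares are a description and no test of the set.

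**Figure D4:**
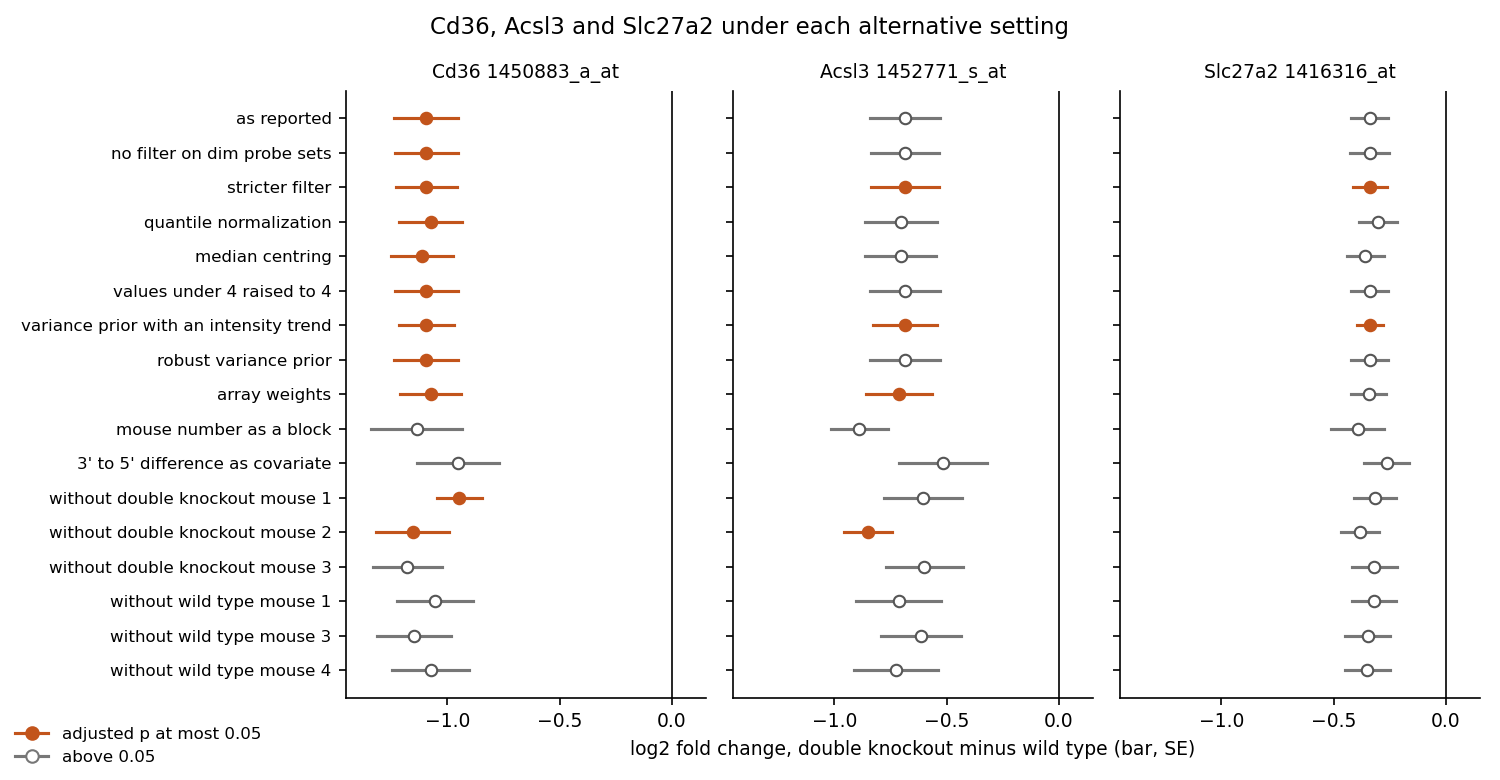
Log2 fold change, double knockout minus wild type (x axis, bars are limma standard errors), of 1 probe set each of Cd36, Acsl3 and Slc27a2 under the reported fit and 16 alternatives (rows); filled points passed an adjusted p of 0.05. Cd36 stays between -1.18 and -0.95 throughout and is filled in 10 of the 16 alternatives, Acsl3 in 4 and Slc27a2 in 2.

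Other genes of fatty acid uptake and trafficking were listed beside the 10 (further Slc27a, Acsl, Acbd and Fabp genes, the scavenger receptors Scarb1 and Scarb2, caveolae genes and the palmitoylating enzymes that act on Cd36). Of 33, 30 had a probe set and 19 were bright enough to test, and 0 passed limma's threshold in either direction, with 5 at an unadjusted p of 0.05 or less (median log2 fold change 0.14, against 0.03 over all tested probe sets). Of all tested probe sets, 27.1% had an unadjusted p of 0.05 or less. The smallest p-values belonged to Scp2, a sterol and fatty acyl carrier, and Acbd5, a peroxisomal acyl-CoA binding protein. Scp2 had 12.87, 12.95 and 12.83 in double knockout mice, against 13.25, 13.21 and 13.21 in wild type mice (fold change -0.34, limma adjusted p = 0.0602). Acbd5 had 10.66, 10.79 and 10.78 in double knockout mice, against 11.06, 11.06 and 11.22 in wild type mice (-0.37, limma adjusted p = 0.0661). Their groups did not overlap, as for 34.3% of all tested probe sets in either direction, and both passed with the stricter filter and with an intensity trend only.

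Among transcription factors and cofactors known to act on Cd36 or on fatty acid genes, 18 of 22 were tested, of which 1 rose, 1 fell and 16 did not pass (median -0.03). Over all tested probe sets 4.47% passed, made up of 2.54% higher and 1.93% lower, and 2 genes are too few to set the list apart from that. Hnf4g, a nuclear receptor of the intestinal epithelium, had 9.90, 9.91 and 9.50 in double knockout mice, against 10.60, 10.37 and 10.68 in wild type mice. It fell by 0.78 on the log2 scale (SE 0.15, limma adjusted p = 0.0412), but passed in 0 of the 6 fits without 1 mouse (0.0607 to 0.136). Its 2 other probe sets stood at -1.27 (limma adjusted p = 0.0255) and -1.47 (0.147). Ppard, the PPARδ receptor that is widely expressed in epithelium, had 8.40, 7.96 and 8.55 in double knockout mice, against 7.26, 7.60 and 7.49 in wild type mice. It rose by 0.85 ± 0.17 (SE, limma adjusted p = 0.0489) and passed in 1 of the 6 fits without 1 mouse, that without double knockout mouse 2 (0.0363).

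The PPAR receptors most often tied to Cd36, named here after their values were seen, did not pass. Pparg had 7.26, 7.70 and 7.45 in double knockout mice, against 7.43, 7.50 and 7.50 in wild type mice (fold change -0.01, interval -0.31 to 0.29, limma adjusted p = 0.973). Ppara, on the brightest of its 3 tested probe sets, had 8.97, 10.03 and 10.22 in double knockout mice, against 10.29, 10.33 and 10.37 in wild type mice (-0.59, interval -1.33 to 0.15, limma adjusted p = 0.265). All its double knockout values lay below all wild type values, as for 14.8% of all tested probe sets, with double knockout mouse 1 far under the rest. Of 15 tested PPAR target genes, 0 passed limma's threshold, with 2 at an unadjusted p of 0.05 or less (median -0.02), as were 27.1% of all tested probe sets. The smallest p-values were those of Ehhadh, a peroxisomal β-oxidation enzyme, with 10.45, 10.73 and 10.46 in double knockout mice, against 10.90, 10.94 and 10.94 in wild type mice (-0.38, limma adjusted p = 0.0786), and of Vnn1, a pantetheinase, at -0.65 (limma adjusted p = 0.121).

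Markers of other cells and regions were read from the same arrays, on which 46.4% of all tested probe sets had a negative fold change, 2.54% were higher and 1.93% lower past the threshold. Enterocyte markers had 10 of 11 negative fold changes with a median of -0.09, and the mean over the list lay between 12.79 and 12.88 in double knockout mice and between 12.95 and 13.03 in wild type mice, without overlap. Of the list only Treh, which splits trehalose, fell (-0.74, limma adjusted p = 0.0303). Apoa4 (mean 14.03 in double knockout mice and 14.09 in wild type mice) and Apoa1 (13.99 in double knockout mice and 14.10 in wild type mice) lie near the top of the scale, where a difference has little room to show. The other tested markers lie lower, from Treh (mean 10.53 in double knockout mice and 11.27 in wild type mice) to Slc5a1 (13.29 and 13.49). The size of the list's shift was not tested against that of Cd36. Markers of crypt and dividing cells went the other way, with 8 of 9 positive fold changes, a list mean of 8.81 to 9.09 in double knockout mice and of 8.50 to 8.67 in wild type mice, and 3 genes, Top2a, Mcm5 and Cdk1, that rose (0.55, 0.52 and 0.60). Ileum markers had 4 negative and 2 positive fold changes among 6 tested. Their list mean was 10.02 to 10.26 in double knockout mice and 10.30 to 10.45 in wild type mice. Only Cubn passed, and it was lower (-0.78, limma adjusted p = 0.0186). Fabp6 and Slc10a2, the defining ileal genes, stayed between 1.43 and 2.70 in double knockout mice and between 1.93 and 2.43 in wild type mice. List means of proximal markers overlapped, with a difference of 0.06, but 3 of the 5 tested had positive and 2 negative fold changes. Gata4 lay higher (0.50, limma adjusted p = 0.0625) and Slc46a1 lower (-0.61, limma adjusted p = 0.142). Neither had overlapping groups, as for 34.3% of all tested probe sets in either direction, and neither passed. The part of these shifts in the Cd36 result was not tested.

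Of the markers of other cell types that make Cd36, 0 passed limma's threshold in either direction. Capillary endothelial markers had positive fold changes for 8 of 8 tested genes (list mean 5.17 to 6.03 in double knockout mice and 4.90 to 5.62 in wild type mice), and macrophage markers for 7 of 8 (6.76 to 7.68 in double knockout mice and 6.35 to 7.03 in wild type mice). Adipocyte markers had positive fold changes for 6 of 7 (8.41 to 9.11 in double knockout mice and 7.72 to 8.94 in wild type mice), and of 5 platelet markers measured, 4 were at or under 4 on all arrays, as were 2 of 12 endothelial and 3 of 12 macrophage markers. At an unadjusted p of 0.05 or less stood 0 endothelial, 1 macrophage and 1 adipocyte marker, and Pf4, the platelet gene tested (0.60). Of all tested probe sets, 27.1% had such a p and 46.4% had a negative fold change. Smooth muscle markers had a median of 0.03, with 0 of 7 passing and 0 at an unadjusted p of 0.05 or less. Adipoq, a defining adipocyte gene, had 9.53, 9.75 and 10.15 in double knockout mice, against 9.90, 10.38 and 8.28 in wild type mice. Retn, the adipocyte marker with the low unadjusted p, had 4.95, 5.81 and 6.13, against 4.35, 4.80 and 2.98 (1.58, limma adjusted p = 0.113). Wild type mouse 4 was the lowest on both. Lipe was the adipocyte marker with a negative fold change (-0.23). The part of these cell types in the Cd36 result was not tested.

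**Figure D5:**
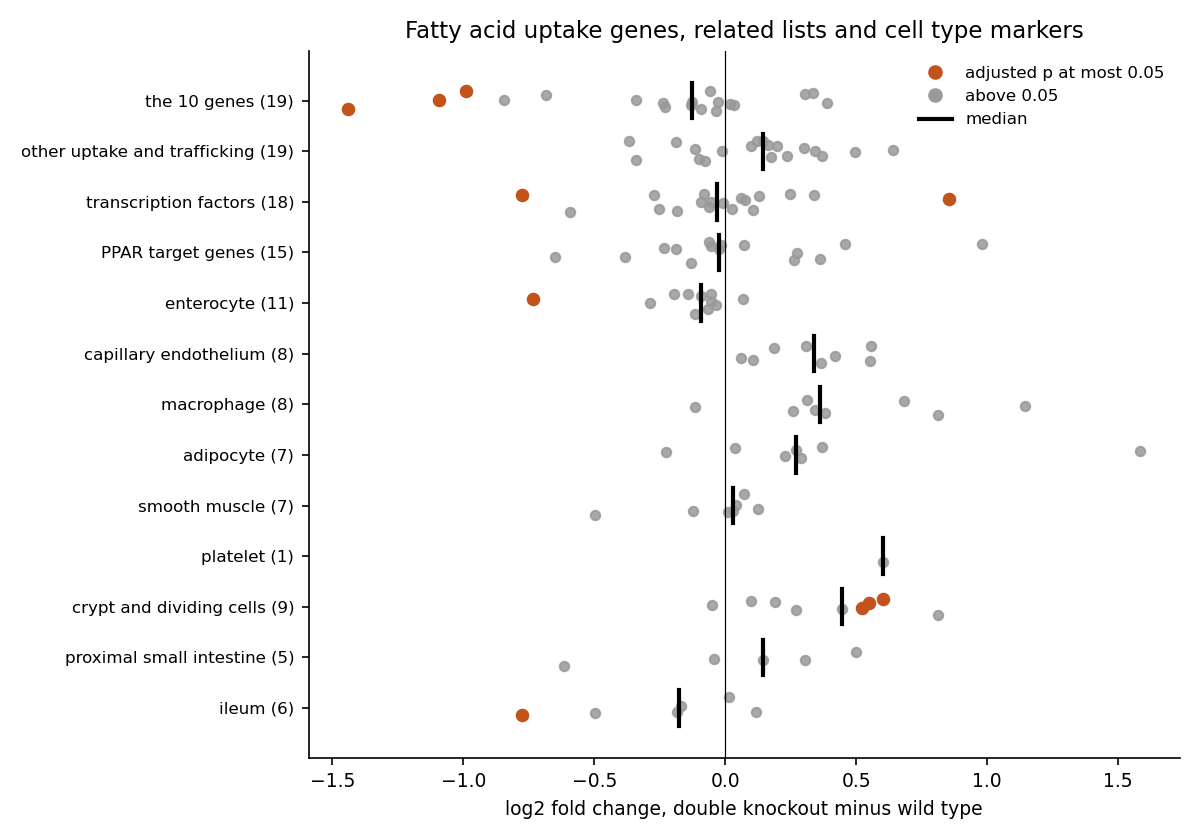
Log2 fold change, double knockout minus wild type (x axis), of the 19 tested probe sets of the 10 genes (top row) and of 1 probe set per gene in 3 related lists and 9 lists of cell type or region markers, with the number tested in brackets; black bars are medians and filled orange points passed an adjusted p of 0.05. Cd36 holds the 3 orange points of the top row, at -1.44, -1.09 and -0.99, and endothelial markers lie at or above 0.06.

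The probe sets of other genes whose levels followed Cd36 most closely over the 6 arrays were found by Pearson's r with 1450883_a_at. They were Rai14, an actin-associated protein (r = 0.998), Maoa, monoamine oxidase A (0.996), Hsd17b4, a peroxisomal β-oxidation enzyme (0.996), Pde4dip, a centrosomal and Golgi protein (0.995), and Cyp2j6, a cytochrome P450 (0.994). The most opposed were Tmem214 (r = -0.994), Vapb, a protein of the endoplasmic reticulum (-0.992), and Eftud2, a spliceosomal GTPase (-0.992). With each group's mean removed, r lay between 0.93 and 0.97 for the first 5 genes and between -0.99 and -0.92 for the last 3. Of 15859 probe sets compared, 616 had an r above 0.9, so such an r over 6 arrays that form 2 groups is not particular to the genes named. The genes were picked by r over the same arrays, so both sets of r values are a description only.

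Only Cyp2j6 of these 8 genes passed (-1.11 ± 0.15 (SE), limma adjusted p = 0.0223). It had 8.89, 9.28 and 9.27 in double knockout mice, against 10.35, 10.04 and 10.39 in wild type mice. Double knockout mouse 1 was the lowest, as for Cd36, but Cyp2j6 was picked by its likeness to Cd36 on these arrays. Among the 10 genes, r with 1450883_a_at was 0.96 for Slc27a2, 0.88 for both tested Acsl3 probe sets and -0.87 and -0.85 for Fabp5. With the group means removed, these were 0.47, 0.21 and 0.29, and -0.41 and -0.15.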

How the data were processed

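The authors deposited 1 log2 level per probe set and array. The submitters' processing notes name GCRMA 2.18.0, without settings. The log2 scale was read from the values. GCRMA models background from probe base content and sets the arrays to like distributions, so low levels and the very top of the scale hold little information. The number of arrays limits the precision.

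Genes were assigned by the platform annotation, with symbols updated through the GRCm38.p6 gene table: 34958 had 1 symbol, 932 several and 9211 none. Probe sets above 4 in 3 or more mice, without the 64 controls, entered lmFit and eBayes of limma 3.58.1 (R 4.3.3) with group as the only term. Fold changes are double knockout minus wild type, and two-sided p-values were adjusted by Benjamini-Hochberg over 18013 probe sets, with a threshold of 0.05. The fit was tested on simulated data with planted log2 changes. It called 10.4% of those of 0.5 and 88.1% of those of 1, so small changes can go uncalled. Few probe sets were changed there, so these shares need not hold for the real arrays. Intervals are limma's 95% intervals, which cover a single probe set and are not adjusted.

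The members, gene lists and tests were chosen with earlier results of these data known. Named genes were all members, the targeted genes, up to 4 passing genes of each related list or the 2 with the smallest p, and the 5 most and 3 least like Cd36; exceptions are stated. Of 164 list entries, 149 matched a probe set and 114 were tested, by the probe set with the highest mean; the others are not analysed here. Figures were drawn with matplotlib 3.10.9. Alternatives covered filter, normalization, a floor of 4, variance prior, array weights, mouse number as a block, the 3′ to 5′ covariate, the Cd36 probe set and leaving out each mouse.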

Additional observations from a re-analysis of the deposited data

How the results depend on the processing

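Cd36 kept its direction under all alternatives. Its call on 1450883_a_at (-1.09) ended with the mouse number as a replicate block (-1.14, limma adjusted p = 0.157) and with the 3′ to 5′ covariate (-0.95), and ran from -1.18 to -0.95 without 1 mouse. The 3 Cd36 probe sets made up the count of lower member probe sets; it was 6 with the stricter filter (log2 above 6), 7 with an intensity trend, 5 with array weights, 0 with the block, 0 with the covariate and 1 to 5 without 1 mouse. The count of higher ones was 0 under each. Over the whole array, the 347 lower and 458 higher probe sets became 207 and 265 with no filter, 506 and 710 with the stricter one, 727 and 918 with the trend, 11 and 2 with the block, 12 and 5 with the covariate, and 21 to 239 and 11 to 196 without 1 mouse. Of the related lists, 1 gene lower and 1 higher became 0 and 0 with no filter, the block or the covariate; 3 lower with the stricter filter and 5 with the trend; 0 higher with median centring or the robust prior; and 0 lower and 0 to 1 higher without 1 mouse.

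Signs turned only for values near 0 that passed nowhere: Fabp2 was 0.0132 after quantile normalization, Acsl5 -0.00232 after median centring, -0.0126 with the covariate and between -0.0446 and 0.0743 without 1 mouse, and Got2 (1417716_at) -0.00288 after quantile normalization, -0.26 with the block and between -0.18 and 0.31 without 1 mouse. Numbers 1 and 3 are the only mouse numbers both groups share, and nothing in the labels makes them pairs. Their deviations from the group means correlated at 0.02 and 0.30 across probe sets, and those of mice with unlike numbers at -0.26 to 0.26. The block rests on 4 mice, and a call lost under it does not show a smaller difference. The mean of the 3 Cd36 probe sets gave -1.17 (limma adjusted p = 0.0151). Levels near the array's top, as for Fabp1 and Fabp2, limit what could be seen there.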
